A study of Mus musculus with 6 samples.

Results

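The genes described here are 10 type I *Mage* genes of the mouse X chromosome, *Magea1*, *Magea2*, *Magea3*, *Magea5*, *Magea6*, *Magea8*, *Magea10*, *Mageb4*, *Mageb16* and *Mageb18*. They were chosen by symbol, and all 10 were found among the 19489 genes of the expression table. The table held 6 RNA-seq libraries of mouse embryonic stem cells (ESCs), cultured cells able to form all tissues of the embryo. *Dppa3* OE ESCs received a vector with the *Dppa3* coding sequence under the CAG promoter and were selected with puromycin, and Con ESCs received the empty vector and are labelled wild type. The study made both picked stable lines and briefly selected transient cells, and the sources used here do not say which were sequenced. Each genotype had a library 1, a library 2 and a library named D7, written here as OE-1, OE-2, OE-D7, Con-1, Con-2 and Con-D7. No source used here explains the name D7, and the count columns of that pair are headed as averages. The strain label differs in every sample, and no source says which ESC line was sequenced or that the libraries came from separate cultures, so the spread behind each p-value is that of these libraries alone and may be technical.

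MAGE proteins share a MAGE homology domain, through which they bind RING-type E3 ubiquitin ligases and change their activity or targets. The type I genes (the *Magea*, *Mageb* and *Magec* groups) are normally expressed mainly in male germ cells. They are silent in most somatic tissues, where promoter DNA methylation contributes to their repression, and are switched on in many human tumours, which gave them the name cancer/testis genes. The type II genes, such as *Maged1* and *Ndn*, are expressed in many tissues.

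Total estimated counts ran from 17408954 to 18176939 per library. *Dppa3*, the overexpressed gene, had 278.79, 278.82 and 130.96 FPKM (fragments per kilobase of transcript, scaled to sequencing depth) in OE-1, OE-2 and OE-D7, against 6.09, 3.89 and 26.22 FPKM in Con-1, Con-2 and Con-D7, so every OE library lay above every Con library. All 8 ESC markers were above 1 FPKM in at least 1 library. Their sums were 3667.26 to 4354.0 FPKM in OE libraries and 3768.27 to 4536.14 FPKM in Con libraries. These sums hid opposite differences in the D7 libraries. *Dppa5a* was higher in OE-D7 and Con-D7 (2267.56 and 2083.11 FPKM) than in any other library. *Pou5f1*, *Sox2*, *Zfp42*, *Esrrb*, *Klf4* and *Tdgf1* were lower in both D7 libraries than in all others, while *Nanog* lay within the range of the others. Libraries with the same number deviated together from their genotype's mean, with correlations of 0.90, 0.77 and 0.91 across 12396 genes for pairs 1, 2 and D7. The libraries were therefore treated as paired by their number, and each comparison is given without and with the number as a block where the call differs.

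All 10 genes lie on the minus strand of chromosome X and are protein coding in RefSeq (build GRCm38.p6). Their transcripts were taken from GENCODE M21. *Magea6*, *Magea3*, *Magea8*, *Magea2*, *Magea5* and *Magea1* follow each other in that order in a cluster of 166 kb, chrX:154923895-155089790. The remaining members are scattered, with *Magea10* at chrX:72381870-72386858, *Mageb16* at chrX:79623231-79671435, *Mageb4* at chrX:86250256-86256219 and *Mageb18* at chrX:92118879-92599572. The clustered genes are close copies of each other. Between 39% and 75.9% of the 50-base windows in the transcripts of these 6 genes also occurred in the transcript of another gene, and none of these genes had a whole-number count in the libraries where they were detected. How the authors' counting assigned reads that fit several copies was not tested, and each single value of these genes is uncertain. *Mageb4* and *Mageb16* shared 50.1% and 55.1% of their windows with pseudogenes that have no row in the table (*Mageb10-ps*; *Mageb16-ps1* and *Mageb16-ps2*), and their counts were whole in every library. *Magea10* and *Mageb18* shared no window, and their counts were whole in 6 of 6 and 3 of 5 libraries with counts, so fractional counts did not follow shared windows alone.

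The promoters of the 4 measurable genes, and that of *Magea2*, are shown because they differ in CG dinucleotides, the sites of DNA methylation in mammals. Each is the 250 bases before the RefSeq start (GRCm38.p6, 5′ to 3′ on the minus strand), with every CG in capitals. *Mageb16* (chrX:79671436-79671685) and *Mageb4* (chrX:86256220-86256469) are followed by the clustered *Magea8* (chrX:154995851-154996100), *Magea2* (chrX:155033293-155033542) and *Magea5* (chrX:155061554-155061803). The starts used for *Magea2* and *Magea5* lie inside the RefSeq extents of these genes.

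Mageb16: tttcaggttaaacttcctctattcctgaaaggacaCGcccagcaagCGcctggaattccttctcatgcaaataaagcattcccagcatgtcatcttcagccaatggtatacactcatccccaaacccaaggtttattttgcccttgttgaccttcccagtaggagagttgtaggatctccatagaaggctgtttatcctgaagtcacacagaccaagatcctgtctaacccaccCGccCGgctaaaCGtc
Mageb4: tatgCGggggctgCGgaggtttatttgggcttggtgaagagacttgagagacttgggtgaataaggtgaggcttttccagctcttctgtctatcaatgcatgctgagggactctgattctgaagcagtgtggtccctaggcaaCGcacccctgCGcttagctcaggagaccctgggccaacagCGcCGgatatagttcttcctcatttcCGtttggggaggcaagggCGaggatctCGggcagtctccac
Magea8: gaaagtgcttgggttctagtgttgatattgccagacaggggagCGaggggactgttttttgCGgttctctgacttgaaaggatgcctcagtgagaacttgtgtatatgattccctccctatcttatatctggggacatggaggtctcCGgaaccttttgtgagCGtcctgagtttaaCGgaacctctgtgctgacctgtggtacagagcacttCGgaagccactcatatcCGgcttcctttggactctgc
Magea2: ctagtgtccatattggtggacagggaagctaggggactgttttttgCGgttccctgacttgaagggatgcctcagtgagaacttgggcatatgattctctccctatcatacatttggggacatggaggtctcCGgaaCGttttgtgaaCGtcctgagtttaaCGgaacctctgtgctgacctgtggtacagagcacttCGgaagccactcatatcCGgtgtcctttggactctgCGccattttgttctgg
Magea5: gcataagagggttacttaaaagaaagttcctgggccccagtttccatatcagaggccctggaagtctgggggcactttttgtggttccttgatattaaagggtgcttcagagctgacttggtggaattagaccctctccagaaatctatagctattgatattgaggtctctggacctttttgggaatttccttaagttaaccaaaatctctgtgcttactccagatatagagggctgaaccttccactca

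*Mageb4* had the most CG sites of the 10 windows, and *Mageb4*, *Magea2*, *Magea8* and *Mageb16* had 9, 8, 7 and 5, against a median of 6 over 32851 mouse promoters of the same length. *Magea10* had 2, *Magea6* and *Mageb18* had 1 each, and *Magea1*, *Magea3* and *Magea5* had none. *Magea2* and *Magea8* were near-copies also in this window, identical at 216 of 265 aligned columns (81.5%), and both held 1 CCGGAA, the core of an ETS-type site, which 12% of all promoters held on either strand. *Magea1* and *Magea3* were identical at 84.1% of columns. *Mageb16* held 1 GGGCGG (in 32.7% of promoters), while CACGTG (6.02%) and TCCCGC (16.9%), the letters of an E-box and of an E2F-type site, were in none of the 10 windows.

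In these ESCs the 10 genes were not silent as a group, but nearly all of their signal came from 1 gene. *Mageb16* (gene 71967) had 40.75, 37.17 and 31.16 FPKM in OE-1, OE-2 and OE-D7, against 37.42, 38.72 and 30.7 FPKM in Con-1, Con-2 and Con-D7. It made up 81.2% to 92.4% of the summed FPKM of the 10 genes in OE libraries and 91.4% to 95.6% in Con libraries, and ranked at the 86 to 88.9 percentile of all genes in every library. *Mageb4* (gene 434903) came second at 2.26, 6.43 and 2.82 FPKM in OE-1, OE-2 and OE-D7, against 1.17, 3.15 and 1.85 FPKM in Con-1, Con-2 and Con-D7. Its percentile among all genes was 45.1 to 57.3 in OE libraries and 40.9 to 47.4 in Con libraries, and even its highest value was below the lowest of *Mageb16*. *Magea8* and *Magea5* followed at 0.13 to 0.81 FPKM, and these overlapped each other across libraries. The other 6 genes had at most 0.4 FPKM each. In bulk samples, a lower level in every cell and fewer expressing cells cannot be told apart.

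**Figure D1:**
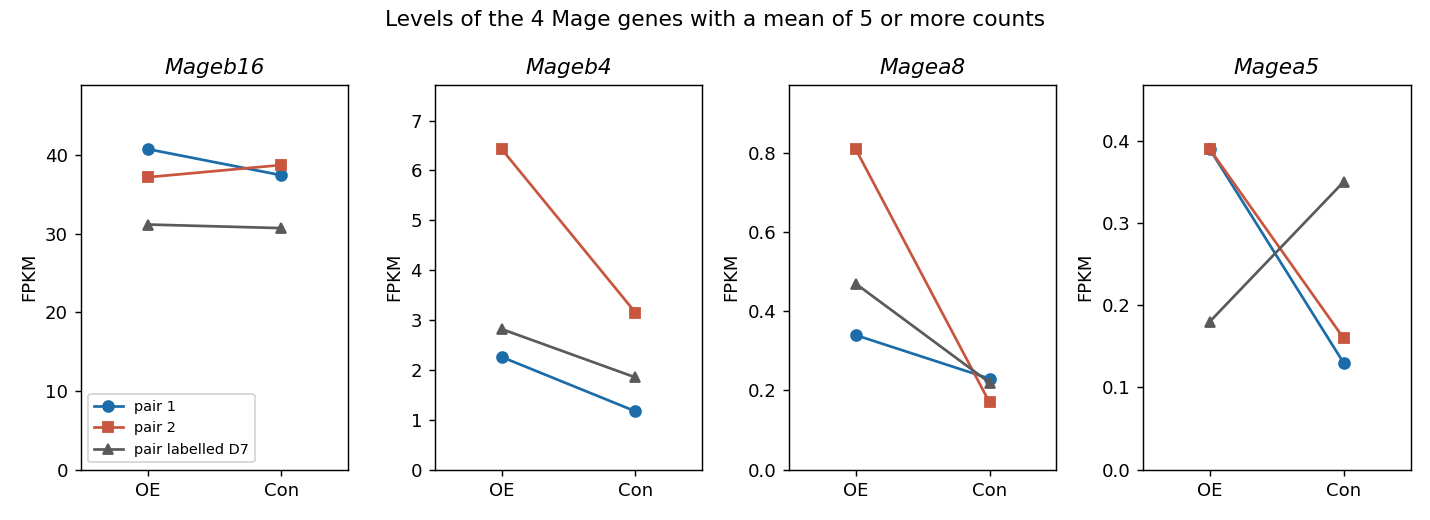
FPKM (y axis, starting at 0 and scaled per gene) of *Mageb16*, *Mageb4*, *Magea8* and *Magea5* in OE libraries (left) and Con libraries (right), with a line joining the 2 libraries of a pair. *Mageb4* lay higher in OE in every pair, yet Con-2 at 3.15 FPKM was above OE-1 at 2.26 FPKM, and *Mageb16* was level between genotypes.

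The comparison of *Dppa3* OE with Con ESCs asks how *Dppa3* overexpression changed the transcriptome. *Mageb4*, a germ cell *Mage* gene, was the only member that passed any test of it. It was higher in OE in each pair, by 1.93-fold in pair 1, 2.04-fold in pair 2 and 1.52-fold in the D7 pair. Its estimated counts were 98 and 271 in OE-1 and OE-2, against 51 and 135 in Con-1 and Con-2, and the ratio of the summed counts was 2.01 (95% exact interval 1.68 to 2.41, counting error only). The level averaged 4.35 ± 2.95 FPKM in OE and 2.16 ± 1.40 FPKM in Con (SD, n = 2 each), so the SD in OE was larger than the difference between the means and that in Con was smaller.

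With the replicate number as a block, edgeR's quasi-likelihood test on libraries 1 and 2 gave *Mageb4* a log2 fold change of 0.95 (SE 0.20, adjusted p = 0.0148), and it rose in OE. It was 1 of 4 members tested, while 131 of 15594 genes (0.840%) were called higher. Without the block the log2 fold change was 0.96 (SE 0.68, adjusted p = 1) and no member was called, nor was any of the 15594 genes (0.00%), although the unadjusted p was under 0.05 for 83 genes with higher and 6 with lower values, and DESeq2 called 4. *Dppa3* itself had an adjusted p of 0.444 in edgeR without the block, at a log2 fold change of 5.74, and of 7.56e-19 with it. With the block and a mean FPKM of at least 0.5 as the filter, edgeR gave *Mageb4* an adjusted p of 0.0258. The call did not hold in 3 other blocked tests on these libraries: DESeq2 gave an adjusted p of 1, limma on log2(FPKM + 0.5) 0.156, and edgeR with no filter on low counts 0.148. Without OE-2 the unblocked log2 fold change was 0.10, and without Con-2 it was 1.76. These fits break pair 2, so they mix the difference between OE and Con with that between library numbers. Within pairs 1 and 2 the ratios were 1.93 and 2.04.

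Over all 3 pairs, *Mageb4* had a log2 fold change of 0.83 (SE 0.49, edgeR adjusted p = 1) without the block and 0.82 (SE 0.16, adjusted p = 0.199) with it. No member was called by either fit. Of all 15952 genes, none (0.00%) was called without the block, where the unadjusted p was under 0.05 for 169 with higher and 60 with lower values and DESeq2 called 6. With the block 1 gene (0.00627%) was called by edgeR and 69 by DESeq2, which gave *Mageb4* an adjusted p of 0.373.

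*Mageb16* showed no such difference. Its within-pair ratios were 1.09, 0.96 and 1.02, it averaged 39.0 ± 2.53 FPKM in OE and 38.1 ± 0.919 FPKM in Con (SD, n = 2 each), and the blocked log2 fold change was -0.01 (SE 0.09, edgeR adjusted p = 0.995). With 1166 to 1304 counts per OE library and 1201 to 1228 per Con library, the ratio of summed counts was 1.03 (95% exact interval 0.973 to 1.09, counting error only).

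*Magea8* and *Magea5*, genes of the X-linked *Magea* cluster, lay higher in OE-1 and OE-2 than in either Con library. *Magea8* (gene 17144) had 9.9, 23.2 and 13.27 estimated counts in OE-1, OE-2 and OE-D7, against 6.84, 4.93 and 6.47 in Con-1, Con-2 and Con-D7, or 0.34, 0.81 and 0.47 FPKM against 0.23, 0.17 and 0.22 FPKM. The 3 OE values all exceeded the 3 Con values. The share of all genes with this order was not counted, so it is a description only. Its log2 fold change over libraries 1 and 2 was 1.39 (SE 0.64, edgeR adjusted p = 1) without the block and 1.37 (SE 0.57, adjusted p = 0.477) with it. Leaving out OE-2 brought the first value to 0.72 and leaving out OE-1 to 1.84, each with a pair broken.

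*Magea5* (gene 17141) had 10.38 and 11.25 estimated counts in OE-1 and OE-2, against 3.24 and 3.8 in Con-1 and Con-2. The D7 pair ran the other way, with 5.11 counts in OE-D7 against 9.53 in Con-D7. In FPKM these were 0.39, 0.39 and 0.18 in OE-1, OE-2 and OE-D7, against 0.13, 0.16 and 0.35 in Con-1, Con-2 and Con-D7, and the 2 groups of 3 overlapped. The log2 fold change over libraries 1 and 2 was 1.52 (SE 0.54, edgeR adjusted p = 1) without the block and 1.52 (SE 0.66, adjusted p = 0.531) with it, and over the 3 pairs it was 0.63 (SE 0.63) without the block. *Magea5* reached the mean of 5 counts needed for testing only through its OE libraries, so its difference is partly set by that filter.

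**Figure D2:**
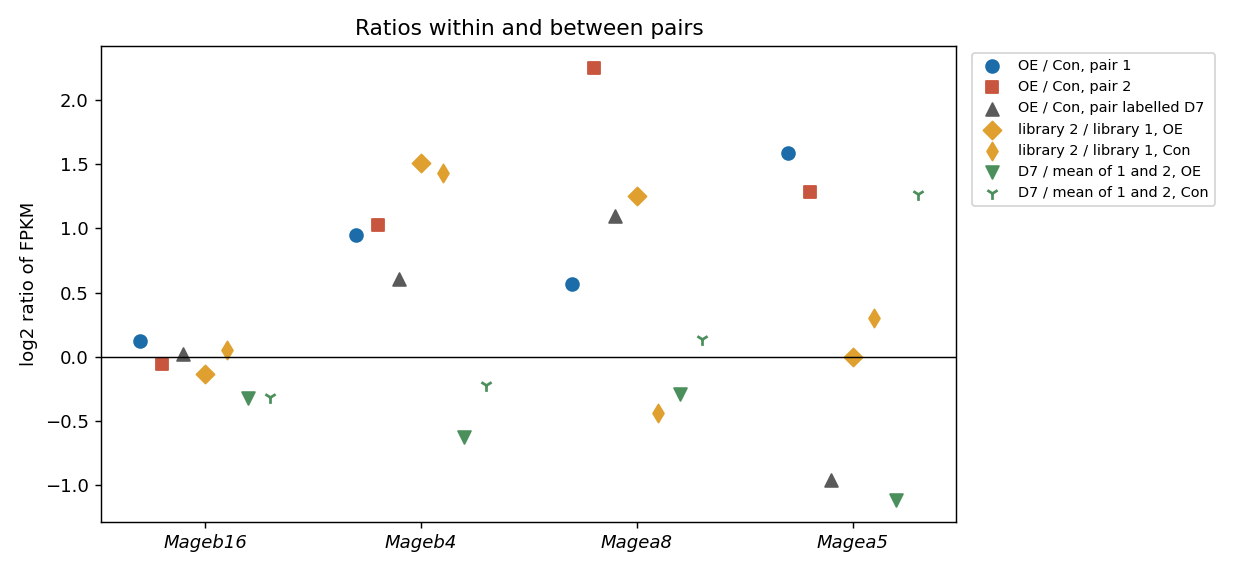
Log2 ratios of FPKM (y axis) for the 4 measurable *Mage* genes: OE over Con within each pair, library 2 over library 1 within each genotype, and the D7 library over the mean of libraries 1 and 2 within each genotype. For *Mageb4* the ratios between libraries 2 and 1 (2.85 in OE and 2.69 in Con, before taking logs) were larger than those between OE and Con (1.52 to 2.04).

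The other 6 genes had a mean under 5 counts and were tested in the fits with no filter on low counts and, for *Magea2*, in fits without Con-2, where none was called between OE and Con. *Magea2* (gene 17138), the near-copy of *Magea8* and *Magea1*, stood out among them with 2.87 and 11.56 estimated counts in OE-1 and OE-2, against 1.08 and 0 in Con-1 and Con-2, and it had none in OE-D7 or Con-D7. The ratio of summed counts in libraries 1 and 2 was 14.2, with an exact 95% interval of 2.16 to 599 that covers counting error only. It treats the rounded estimated counts as independent reads, although 58.3% of the windows of *Magea2* were shared with other genes. Most of the OE counts came from OE-2, and the unfiltered, unblocked edgeR fit of libraries 1 and 2 gave an unadjusted p of 0.0506 (adjusted p = 1).

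*Magea3* had 3.79 and 1.37 counts in OE-2 and OE-D7 and none in OE-1, against 1.33 in Con-1 and none in Con-2 or Con-D7. *Magea6* had 4.61 and 1.25 counts in OE-2 and OE-D7 and none in OE-1, against 1.5 and 1.27 in Con-1 and Con-2 and none in Con-D7. Human proteins of the MAGE-A3 and MAGE-A6 type are known partners of TRIM28, a ligase and co-repressor. Their ratios over libraries 1 and 2 were 4.05 (95% exact interval 0.401 to 199) and 1.69 (0.328 to 10.9), so a difference was not detectable at this depth.

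*Magea1*, whose transcript is 1 exon, had 3.23 counts in OE-1 and none in the other 5 libraries, which is at the 3 counts that a count of 0 allows, and no fold is given. *Magea10*, which lies apart from the cluster, had 3 counts in each OE library, against 2, 2 and 1 in Con-1, Con-2 and Con-D7 (ratio over libraries 1 and 2 of 1.52, 0.36 to 7.32). *Mageb18*, whose human counterpart binds the ligase LNX1, had 1, 6 and 1.05 counts in OE-1, OE-2 and OE-D7, against 0, 2.04 and 2 in Con-1, Con-2 and Con-D7. These 3 genes were at or near the detection limit in all libraries but OE-2 for *Mageb18*.

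**Figure D3:**
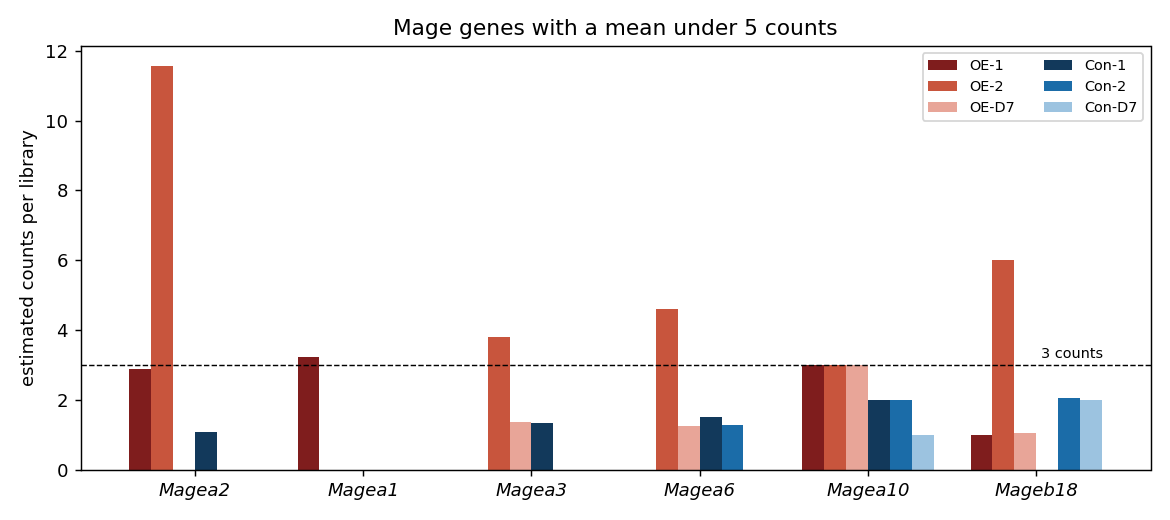
Estimated counts per library (y axis, bars starting at 0) of the 6 *Mage* genes with a mean under 5 counts, OE libraries in red and Con libraries in blue. A dashed line marks the 3 counts that a count of 0 allows, and 11.56 counts of *Magea2* in OE-2 is the highest bar.

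Summed over the 8 genes other than *Mageb16* and *Mageb4*, there were 30.38, 63.41 and 25.05 counts in OE-1, OE-2 and OE-D7, against 15.99, 14.04 and 19.0 in Con-1, Con-2 and Con-D7. OE-2 was the library with the highest level for 6 of the 10 genes. The share over all genes was not counted, so this order is a description only. For *Magea2*, *Magea3*, *Magea6* and *Mageb18* this rested on 3.79 to 11.56 counts in OE-2. Both OE libraries were above both Con libraries among libraries 1 and 2 for *Magea2*, *Magea5*, *Magea8* and *Magea10*, 4 of 10 members. Of the 4 tested members it was 2, *Magea5* and *Magea8*, against 11.4% of all genes tested, and *Magea5* passed the filter only through its OE libraries. OE was above Con in all 3 pairs for *Mageb4*, *Magea8* and *Magea10*, 3 of 10. Of the 4 tested members it was 2, *Mageb4* and *Magea8*, against 20.9% of all genes tested. Among these genes, *Magea2*, *Magea5* and *Magea8* share sequence with each other and *Magea10* had at most 3 counts per library.

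The libraries also differed by their number, and for *Mageb4* by more than by genotype. In the fit on libraries 1 and 2 with a genotype term, *Mageb4* was higher in libraries 2 than in libraries 1 by a log2 fold change of 1.35 (SE 0.20, edgeR adjusted p = 9.56e-06). It had 6.43 and 3.15 FPKM in OE-2 and Con-2, against 2.26 and 1.17 FPKM in OE-1 and Con-1, so the groups did not overlap. This was common in the table: 7443 of 15594 genes (47.7%) were called in one direction or the other, and 46.4% had both libraries 2 above both libraries 1. *Mageb4* was the only member called. Fits that left out 1 library had no genotype term and 1 library in a group, so library number and genotype were mixed. In them the log2 fold change of *Mageb4* ran from 0.78 to 1.87.

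*Magea8* (log2 fold change 0.55, SE 0.55), *Magea5* (0.13, SE 0.63) and *Mageb16* (-0.15, SE 0.09) were not called in the edgeR fit with a genotype term. Their adjusted p-values were 0.437, 0.888 and 0.182. Some markers of male germ cells, and their sum, differed by library number as well. The summed level of their 10 markers was 92.18 and 80.49 FPKM in OE-2 and Con-2, against 47.28 and 35.49 FPKM in OE-1 and Con-1. It was 105.4 and 95.08 FPKM in OE-D7 and Con-D7, where *Mageb4* was lower than in OE-2 and Con-2. *Prm1*, *Prm2*, *Tnp1*, *Acrv1* and *Zbtb16*, 5 of these markers, were under 1 FPKM in all libraries. *Dazl* was at 29.51 and 17.98 FPKM in OE-2 and Con-2, against 13.89 and 7.65 FPKM in OE-1 and Con-1. *Stra8*, *Sycp3* and, by less, *Ddx4* were also higher in libraries 2 of both genotypes. *Sycp1* was not, at 3.25 FPKM in Con-2 against 3.54 FPKM in Con-1. Their part in the level of *Mageb4* was not tested.

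The pair named D7 was compared with libraries 1 and 2, and no member was called, while 1706 of 15952 genes (10.7%) were. *Mageb16* had 31.16 and 30.7 FPKM in OE-D7 and Con-D7, against 37.17 to 40.75 FPKM in the other 4 libraries, so both D7 values lay below all others, as they did for 21.4% of genes tested. The log2 fold change was -0.33 (SE 0.13, edgeR adjusted p = 0.151), with 983 and 993 estimated counts in OE-D7 and Con-D7. *Mageb4* (-0.44, SE 0.53), *Magea8* (-0.21, SE 0.51) and *Magea5* (0.23, SE 0.66) had standard errors wider than their differences, with adjusted p-values of 0.61, 0.809 and 0.84. *Magea2* was listed at 0 counts in both D7 libraries.

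Summed levels of markers of other cells were higher in the D7 libraries. The 5 trophectoderm markers summed to 180.29 and 99.59 FPKM in OE-D7 and Con-D7, against 16.29 to 25.34 FPKM in the other 4 libraries, and the 8 fibroblast markers summed to 177.83 and 71.68 FPKM, against 32.63 to 56.07 FPKM. The largest part of the first sum was *Hand1*, at 150.2 and 71.59 FPKM in OE-D7 and Con-D7. That of the second was *Col1a1*, at 129.05 and 37.98 FPKM. *Cdx2*, *Tfap2c*, *Col1a2*, *Col3a1*, *Postn* and *Fbn1* were also higher in both D7 libraries than in the other 4. *Col1a2*, for example, had 11.86 and 4.42 FPKM in OE-D7 and Con-D7, against 0.13 to 0.36 FPKM. *Thy1* ran the other way, with 20.97 and 22.95 FPKM in OE-D7 and Con-D7, against 30.84 to 52.99 FPKM in the other 4 libraries, and *Eomes* at 4.49 FPKM in OE-D7 was below OE-2 at 5.12 FPKM. The defining genes *Dcn*, *Lum* and *Elf5* were under 1 FPKM in all libraries. Their part in the lower *Mageb16* level was not tested.

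The effect of OE in the D7 pair was also set against that in libraries 1 and 2. *Magea5* had the widest gap among the 4 tested members, with an interaction of -2.50 on the log2 scale (SE 0.95, unadjusted p = 0.0515, edgeR adjusted p = 1). For *Mageb4* it was -0.38 (SE 1.18). No member was called, and neither was any of the 15952 genes (0.00%), where the unadjusted p was under 0.05 for 56 with positive and 33 with negative values and DESeq2 called 2. With the block edgeR called 175 genes (1.10%) and DESeq2 22, again with no member among them, and the interaction of *Magea5* had an edgeR adjusted p of 0.417. *Dppa3* itself was among the genes edgeR called with the block, at an interaction of -3.46. Its ratio of OE to Con was 4.99 in the D7 pair, against 45.8 and 71.7 in pairs 1 and 2.

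The rest of the *Mage* family gave a mixed background. Of 4 other type I genes in the table, only *Magea4* passed the filter. It had 1.66, 3.74 and 0.99 FPKM in OE-1, OE-2 and OE-D7, against 0.9, 1.48 and 1.07 FPKM in Con-1, Con-2 and Con-D7, with a blocked log2 fold change of 1.10 (SE 0.32, edgeR adjusted p = 0.145) over libraries 1 and 2. Like *Mageb4*, it was higher in libraries 2 than in libraries 1, by 0.87 (SE 0.32, adjusted p = 0.0302). Its levels in OE and Con were not called different, and OE-D7 was below Con-D7.

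None of the 9 type II genes was called between OE and Con with the block, and their median log2 fold change was 0.04, against -0.00 over all genes. The 4 tested members had a median of 1.16, which is partly set by the filter through *Magea5* and is given as a description. *Maged1*, a p75 neurotrophin receptor partner and the most abundant of them, had 67.56 and 56.88 FPKM in OE-1 and OE-2, against 64.81 and 62.32 FPKM in Con-1 and Con-2. The largest of their fold changes was -0.23 (SE 0.30) for *Magee2*. Among the 4 tested members, those with the larger fold changes had the fewer counts.

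**Figure D4:**
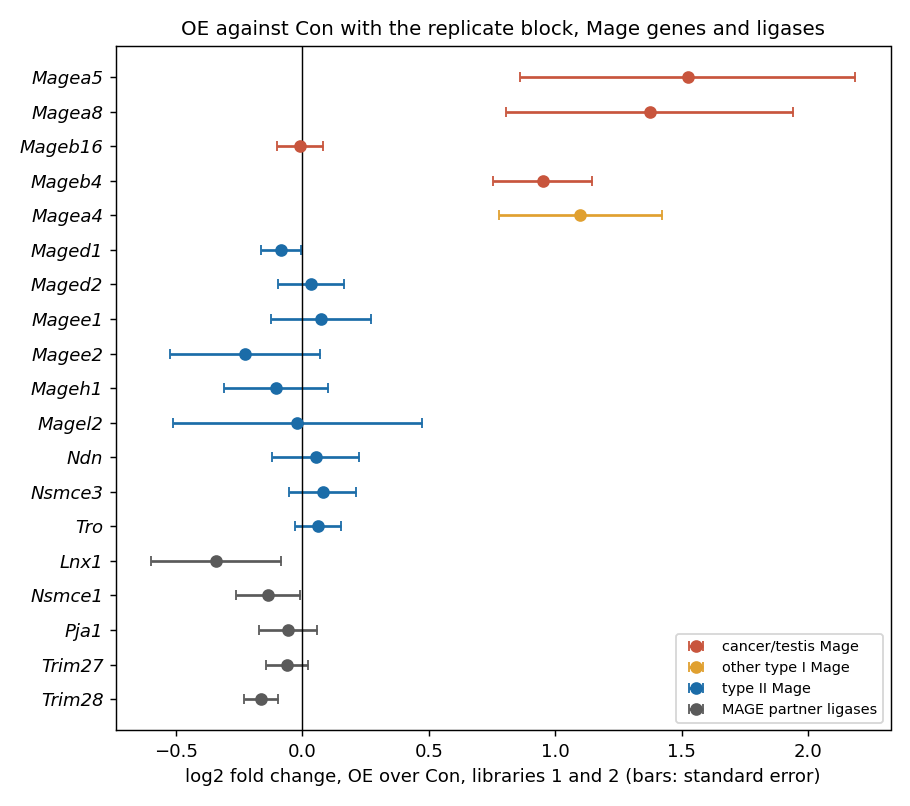
Log2 fold change of OE over Con in libraries 1 and 2, with the replicate number as a block (x axis, points with standard errors), for the tested cancer/testis *Mage* genes, *Magea4*, the type II *Mage* genes and the partner ligases. *Mageb4* at 0.95 is the only one called, *Mageb16* sits at -0.01, and the type II genes lie between -0.23 and 0.08.

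The ubiquitin ligases that MAGE proteins bind were called in neither direction between OE and Con. Of 6 listed, 5 were tested, with a median of -0.14 and none above 0. *Trim28* had 660.57 and 398.01 FPKM in OE-1 and OE-2, against 759.08 and 405.47 FPKM in Con-1 and Con-2, with a blocked log2 fold change of -0.16 (SE 0.07, edgeR adjusted p = 0.484), and *Lnx1* had the largest change at -0.34 (SE 0.26). By library number, *Trim28* was lower in libraries 2 than in libraries 1, by -0.94 (SE 0.07, edgeR adjusted p = 1.6e-09). *Trim27*, the partner of MAGEL2, was lower too, and *Lnx1* was higher at 1.07 (SE 0.26, edgeR adjusted p = 0.00179). Of all genes, 24.0% were called lower and 23.8% higher in this comparison.

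A list of 12 genes covers DNA methylation, its removal and germline gene repression, and includes the maintenance methyltransferase *Dnmt1* and its cofactor *Uhrf1*. None was called between OE and Con in libraries 1 and 2 with the block, where the median was -0.01. Over the 3 pairs with the block none was called, the median was -0.10 and 2 were above 0. The D7 interaction with the block was above 0 for none of the 12, with a median of -0.25, and none was called. Between libraries 2 and 1, 9 of the 12 were called lower in libraries 2 and none higher, while 24.0% of all genes were called lower. They were *Setdb1*, a histone H3K9 methyltransferase, at -0.73 (SE 0.08, edgeR adjusted p = 1.46e-07), and *L3mbtl2*, *Tet2*, *Uhrf1*, *Pcgf6*, *E2f6*, *Dnmt3b*, *Tet1* and *Dnmt1*, between -0.62 and -0.21. In the D7 pair, where 10.7% of all genes were called, *Dnmt3l* (-1.23), *Tet1* (-1.43) and *Tet2* (-1.33) fell, with edgeR adjusted p-values of 0.00979, 0.0079 and 0.0197, and *Dnmt3a* rose by 0.66 (adjusted p = 0.0285).

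Of 10 genes next to the members on the X chromosome, 8 were tested. None was called between OE and Con in libraries 1 and 2 with the block, their median log2 fold change was -0.09, and 1 was above 0. Over the 3 pairs with the block the median was -0.04 and 3 were above 0. The D7 interaction with the block was above 0 for all 8, with a median of 0.37. It called 1 of them (*Sat1*), against 1.10% of all genes. Between libraries 2 and 1, 4 were called higher and 1 lower, against 23.8% and 24.0% of all genes. A difference between the neighbours and the members was not tested.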

How the data were processed

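RNA was sequenced by the authors on the BGISEQ-500 platform. Bowtie2 and RSEM on mm10 are named in the study's methods, HISAT and GRCm38.p6 in the submitters' notes, and tool versions are not given in the sources used here. The deposited table held estimated counts and FPKM per gene, made by the authors, and no value column was left unused. Estimated counts were rounded and tested with edgeR 4.0.16 (R 4.3.3; TMM, quasi-likelihood, mean of at least 5 counts, Benjamini-Hochberg over all genes tested, threshold 0.05), with DESeq2 1.42.0 and limma 3.58.1 (log2(FPKM + 0.5) or + 1) as alternatives. A fold change on the log2(FPKM + pseudocount) scale understates that of low genes. The main tests had no block, as the study's methods name none. Same-numbered libraries correlated above 0.1 in all 3 pairs, so the numbers pair the libraries. Other alternatives were RLE size factors, other filters, dropped terms and left-out libraries. Scripts were tested on simulated data. Exact binomial intervals of count ratios, scaled by library totals, cover counting error only, as do floors of 3 counts. The intervals treat rounded estimated counts as independent reads and leave out how reads that fit several copies were assigned.

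Every member was named, and from each other list the most abundant gene, those called and the one with the largest fold change; neighbours were given by counts. Members, lists and motifs were chosen with earlier results of these data known. Promoters are from RefSeq (GRCm38.p6) and matched 10 of 10 members by gene number. D7 columns were used as 1 library each.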

Additional observations from a re-analysis of the deposited data

Results flagged for a closer look

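In 3 type I *Mage* genes the difference between OE and Con had one sign in pairs 1 and 2 and the opposite sign in the D7 pair. The ratio of OE to Con for *Dppa3* was 4.99 in the D7 pair, against 45.8 and 71.7 in pairs 1 and 2, and its bearing on these genes was not tested. For *Magea5*, OE minus Con was -0.17 FPKM in the D7 pair, and 0.26 and 0.23 FPKM in pairs 1 and 2, with an interaction of -2.50 on the log2 scale (edgeR adjusted p = 1). For *Magea4* it was -0.08 FPKM in the D7 pair, and 0.76 and 2.26 FPKM in pairs 1 and 2 (interaction -1.26, edgeR adjusted p = 1). For *Mageb18* it was -0.02 FPKM in the D7 pair, and 0.03 and 0.11 FPKM in pairs 1 and 2, at 6 counts or fewer per library, and the interaction in the fit with no filter was -2.57 (SE 2.80, edgeR adjusted p = 1).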

How the results depend on the processing

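The replicate block changed the result between OE and Con in libraries 1 and 2: 0 members were called without it, and 1 (*Mageb4*) with it or, as an alternative added after seeing the data, with it and a mean FPKM of at least 0.5. Blocked calls over all genes numbered 131 higher and 31 lower, 29 and 2 with DESeq2, and 30 and 2 with no filter, added likewise. With the block the 3 pairs gave 0 members, and 1 without replicate 3, with 1 gene called in all by edgeR and 69 by DESeq2. The D7 interaction called 0 genes without the block and 175 with it, or 22 in blocked DESeq2, and 0 members in each. Between libraries 2 and 1, fits that left out a library had no genotype term and 1 library in a group. Their calls are not given. Leave-one-out counts of members were 0 to 0 in the 4 other comparisons. In edgeR 1706 genes were called for the D7 pair, 0 without OE-D7, 29 without Con-D7 and 2758 with DESeq2. For libraries 2 against 1 DESeq2 called 3709 genes and edgeR 7443.

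Among log2 fold changes of single members, 201 alternatives kept direction and side of the threshold, and 23 turned the direction, none of them called. *Mageb16* between OE and Con turned to 0.0002 (FPKM filter), 0.0316 (limma, without and with the block) and 0.0312 (limma, pseudocount 1) in libraries 1 and 2, with a leave-one-out range of -0.13 to 0.11, and to 0.0245 without replicate 2 with the block over 3 pairs, with a range of -0.0878 to 0.0598. Its D7 interaction turned to 0.0088 with DESeq2 or RLE and 0.0132 with blocked DESeq2 (range -0.12 to 0.12). The other turns came from left-out libraries: for the D7 pair *Magea5* ran from -1.04 to 1.46 and *Magea8* from -0.43 to 0.16, for the interaction *Magea8* ran from -0.74 to 0.37 and *Mageb4* from -1.17 to 0.47, and for libraries 2 against 1 *Magea5* ran from -0.76 to 1.17 and *Magea8* from -0.83 to 1.33. The block could not be fitted with 3 libraries. At 3 to 24 counts, *Magea5* and *Magea8* are limited by depth, and the causes of these turns were not tested.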

Other observations

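Among the type II *Mage* genes, *Maged2*, known for its part in salt transport in the human fetal kidney, rose in the D7 pair. It had 25.27 and 17.26 FPKM in OE-D7 and Con-D7, against 9.66 to 11.2 FPKM in the other 4 libraries, and a log2 fold change of 0.93 (SE 0.16, edgeR adjusted p = 0.0243). In this edgeR fit it was 1 of 9 type II genes called, while 7.6% of all genes were called higher. *Magel2*, an imprinted partner of TRIM27 in endosomal protein recycling, had 0.87 and 1.24 FPKM in OE-D7 and Con-D7, against 0.07 to 0.33 FPKM in the other 4 libraries, with a log2 fold change of 2.35 (SE 0.55, adjusted p = 0.0502). *Maged1*, *Ndn* and *Nsmce3* were lower in libraries 2 than in libraries 1, at log2 fold changes of -0.28, -0.56 and -0.52 (edgeR adjusted p = 0.00626, 0.0102 and 0.00299). Of all genes, 24.0% were called lower in that comparison. *Mageb1*, *Mageb2* and *Mageb3*, type I genes that share most of their sequence or part of it, were at 0.5 FPKM or less in every library.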
